A study of Mus musculus with 6 samples.

Results

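Cdkn1a, Gadd45g, Sesn1, Bcl2, Bbc3, Cycs and Pdcd4 are genes of growth arrest and cell death, and their transcripts were followed in parthenogenetic mouse embryos. A probe was taken where the platform annotation gave it exactly 1 gene symbol and that symbol was one of these 7. This yielded 8 probes of the 22132 in the table: 2 for Gadd45g and 1 for each of the other genes. All 8 were measured on every array, with 0 values at exactly 0 and 0 at the limit of the ratio, so 8 of 8 passed the filter on unset values.

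The embryos arose from metaphase 2 eggs that were activated without sperm, by one agent or the other. One group (3 arrays) received cycloheximide, which the labels spell cyclohexamide and which blocks protein synthesis. The other group (3 arrays) received Strontium Chloride, which makes the egg release calcium in repeated waves. Both groups also received cytochalasin D, which disrupts actin filaments, and both were then cultured in KSOM medium for 60 h. Each sample was mRNA equivalent to 25 embryos, pooled, amplified in 2 rounds and labelled with Cy3. Universal Mouse Reference RNA, a commercial mixture, shared each array with it, carrying Cy5 after 1 round of amplification. The labels give neither the strain nor the stage reached. Nor do they tell separate cultures from repeats of one culture, so the error behind each p-value is that between arrays and could be technical. The title poses the question of what a missing calcium signal at activation does to later gene expression.

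These genes act along the pathway that stops the cell cycle or ends in apoptosis. The transcription factor p53 induces Cdkn1a, which inhibits cyclin-dependent kinases, Sesn1, which restrains growth signalling through mTOR, and Bbc3, which encodes the death protein PUMA. PUMA and its relatives counter BCL2 at the mitochondrial membrane, and when BCL2 is overcome cytochrome c (Cycs) leaves the mitochondrion and activates caspases. PDCD4 binds the helicase eIF4A and holds back translation, and in many cells its level changes with cell death. Preimplantation mouse embryos are known to fragment by apoptosis under poor culture conditions, and parthenogenetic embryos do not develop to term.

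Values below are log2 ratios of embryo over reference RNA, so that 1 unit is a doubling, and a difference is the mean of cycloheximide minus the mean of strontium. The direction of the deposited ratio is not stated with the values and was taken as likely from the dyes. With it, oocyte and early embryo markers (7 of 16 measured) had array medians of 2.31 to 3.44, and fibroblast markers (6 of 11) had medians of -4.48 to -3.29. If the direction were opposite, every sign below would turn. Array 3 of cycloheximide stood apart: over all probes its correlation was 0.909 with array 3 of strontium, and 0.762 and 0.810 with the other 2 cycloheximide arrays. Both of these arrays 3 also had the widest spread of ratios, with interquartile ranges of 1.58 and 1.57. The other 2 cycloheximide arrays had the narrowest, 1.09 each, and arrays 1 and 2 of strontium had 1.38 and 1.29. The members' differences and the list counts are therefore given without array 3 of cycloheximide as well. That comparison sets the 2 narrowest arrays against wider strontium arrays, so group and spread cannot be told apart in it. By limma, 0 of 21921 probes passed an adjusted p of 0.05 between the groups (lowest adjusted p 0.365), while 1319 had an unadjusted p under 0.05.

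No probe of the 7 genes passed the test between the groups. Cdkn1a, Bbc3 and both probes of Gadd45g lay higher after cycloheximide on average, and Sesn1, Bcl2, Cycs and Pdcd4 lay lower. The sizes ran from 0.07 to 0.94 on the log2 scale. Adjusted p-values by limma were 0.820 for Cdkn1a and for probe 20346 of Gadd45g, 0.866 for Sesn1, Bcl2, Bbc3, Cycs and Pdcd4, and 0.955 for probe 19937 of Gadd45g. The share of all probes called at the adjusted threshold was 0%. An unadjusted p under 0.05 was found for 2 of 8 probes, both higher, where 6.02% of all probes reached it, 3.7% on the higher and 2.32% on the lower side. For 3 of 8 probes (2 higher, 1 lower) the values of the groups were fully separate, as they were for 11.8% of all probes (5.72% higher, 6.04% lower). With 8 probes, 2 or 3 is a small count to set against these shares. The members were also chosen with earlier results of these data known, so the shares are no unbiased yardstick for them.

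**Figure D1:**
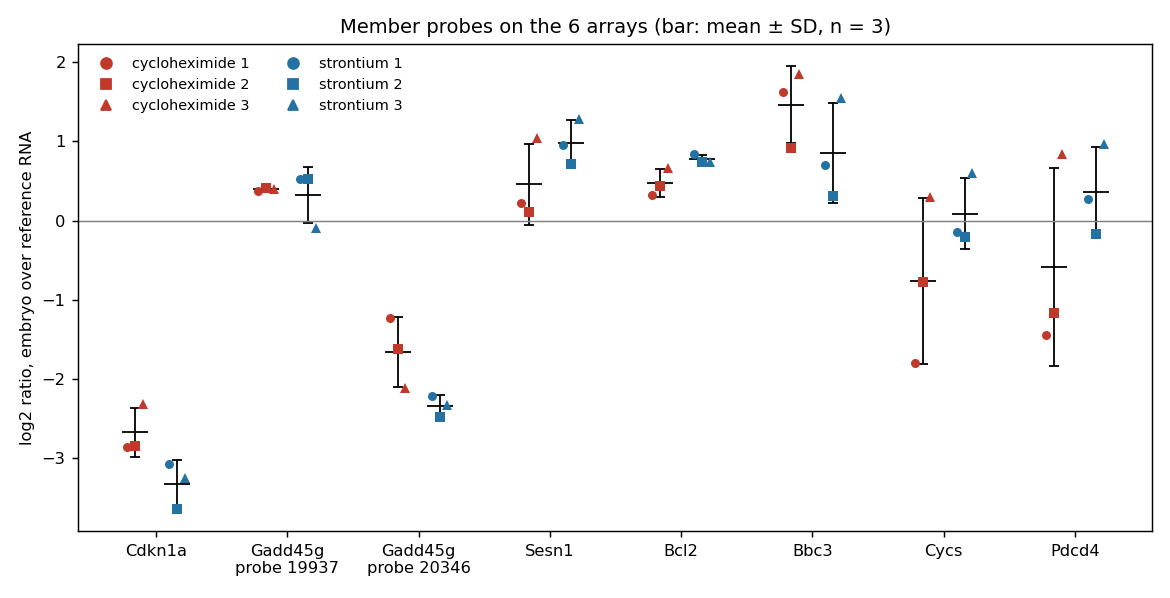
Log2 ratio of embryo over reference RNA (vertical axis) for the 8 probes (horizontal axis) on each of the 6 arrays, red for cycloheximide and blue for strontium, with mean ± SD (n = 3). The groups separate for Cdkn1a, probe 20346 of Gadd45g and Bcl2, while for Cycs and Pdcd4 the third cycloheximide array lies with the strontium arrays.

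Cdkn1a encodes p21, the inhibitor of cyclin-dependent kinases through which p53 arrests the cell cycle. Its ratio was -2.86, -2.84 and -2.32 on cycloheximide arrays 1, 2 and 3, and -3.07, -3.64 and -3.25 on strontium arrays 1, 2 and 3. All 6 values lay well below the reference, on average 7.98-fold, and every cycloheximide array lay above every strontium array. The means were -2.67 ± 0.31 and -3.32 ± 0.29 (SD, n = 3), a difference of 0.65 (SE 0.25, 95% interval 0.04 to 1.25), or 1.57-fold. By limma the unadjusted p was 0.0394, which put the probe at rank 1048 of 21921. Without array 3 of cycloheximide the difference was 0.47 (SE 0.22). Centring and scaling the arrays to one spread left 0.14 (SE 0.62), while quantile normalization, which also gives them one spread, left 0.60 (SE 0.23). The size of this difference thus depends on how arrays of unequal spread are treated. The probe sits on a run of neighbouring probe numbers whose median on array 3 of cycloheximide lay 0.31 above the probes' own means. With that position effect subtracted the difference was 0.65 (SE 0.20).

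Gadd45g, a member of the GADD45 family that binds PCNA and p21 and is induced by stress, had probes that disagreed in level. Probe 20346 was at -1.23, -1.62 and -2.11 on cycloheximide arrays 1, 2 and 3, and at -2.21, -2.48 and -2.33 on strontium arrays 1, 2 and 3. It lay below the reference throughout, and the groups were separated by a narrow gap, between array 3 of cycloheximide and array 1 of strontium. Its means were -1.65 ± 0.44 and -2.34 ± 0.14 (SD, n = 3), a difference of 0.69 (SE 0.26, 95% interval 0.05 to 1.33) with an unadjusted p of 0.0393 by limma. Leaving out array 3 of cycloheximide gave 0.91 (SE 0.20). Centring and scaling the arrays left 0.45 (SE 0.28), and quantile normalization left 0.59 (SE 0.24).

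Probe 19937 of Gadd45g gave another picture. It was at 0.37, 0.41 and 0.40 on cycloheximide arrays 1, 2 and 3, and at 0.53, 0.53 and -0.09 on strontium arrays 1, 2 and 3. The groups overlapped, and array 3 of strontium stood below the other 5. The difference was 0.07 (SE 0.22, 95% interval -0.47 to 0.62), without array 3 of cycloheximide it was 0.07 (SE 0.25), and without array 3 of strontium it turned to -0.13 (SE 0.17). Both probes carry the same gene in the annotation, and the values do not show which of them follows the transcript. An account of Gadd45g by the mean of its probes, which differed by 0.38, would join a probe near the reference with one about 3.99-fold below it.

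The upstream sequences of Cdkn1a and Gadd45g are shown because these are the members whose arrays separated on the higher side. Each is the 250 bases before a transcript start in RefSeq (GRCm38.p6), read 5′ to 3′. Promoters were found for 7 of 7 genes, 12 in all, and the motifs were chosen after the sequences had been seen. In the Cdkn1a sequence, which precedes the more upstream of its 2 listed starts, capitals mark matches to the 10-base p53 decamer, searched on both strands. In the Gadd45g sequence capitals mark the TATA box (TATAAA) and the CCAAT box (CCAAT).
Cdkn1a promoter, chr17:29090729-29090978, plus strand: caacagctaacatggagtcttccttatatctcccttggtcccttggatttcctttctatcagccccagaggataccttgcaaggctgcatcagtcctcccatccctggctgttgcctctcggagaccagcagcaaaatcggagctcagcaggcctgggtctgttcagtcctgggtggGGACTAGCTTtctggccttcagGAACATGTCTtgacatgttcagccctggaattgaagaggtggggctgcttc
Gadd45g promoter, chr13:51846425-51846674, plus strand: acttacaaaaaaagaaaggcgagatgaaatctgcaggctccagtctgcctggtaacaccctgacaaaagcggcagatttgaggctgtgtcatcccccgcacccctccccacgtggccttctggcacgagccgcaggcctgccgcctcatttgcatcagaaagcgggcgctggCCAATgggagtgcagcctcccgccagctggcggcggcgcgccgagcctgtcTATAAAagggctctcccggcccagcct

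The Cdkn1a sequence held 2 p53 decamers, starting 73 and 51 bases before the start. Of 32851 mouse promoter windows of this length, 7.13% held at least 1 such decamer. Of the 12 windows of the 7 genes 2 did, the Cdkn1a window shown and a Sesn1 window. The window of the other listed start of each of these genes had none. The Gadd45g sequence had a TATA box 27 bases and a CCAAT box 78 bases before the start. A TATA box occurred in 12.4% of all windows and a CCAAT box in 33.8%. These matches describe letters in the reference genome and say nothing about binding in the embryos.

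Sesn1 encodes sestrin 1, a p53 target that lowers mTOR activity. Its ratio was 0.22, 0.10 and 1.05 on cycloheximide arrays 1, 2 and 3, and 0.96, 0.71 and 1.28 on strontium arrays 1, 2 and 3. All 6 values lay above the reference. Arrays 1 and 2 of cycloheximide were the lowest, and array 3 of that group lay within the range of strontium. The means were 0.46 ± 0.51 and 0.98 ± 0.28 (SD, n = 3), a difference of -0.53 (SE 0.31, 95% interval -1.29 to 0.23; limma unadjusted p = 0.142). It was -0.82 (SE 0.22) without array 3 of cycloheximide and -0.35 (SE 0.35) without array 2, so it too moved with single arrays. Sesn1 and Cdkn1a, both named as p53 targets, thus differed in opposite directions, with neither past the adjusted threshold.

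Bcl2 encodes the founding survival protein of its family, which keeps the mitochondrial outer membrane closed. It was at 0.32, 0.44 and 0.67 on cycloheximide arrays 1, 2 and 3, and at 0.84, 0.74 and 0.73 on strontium arrays 1, 2 and 3. Every cycloheximide array lay below every strontium array, by a narrow gap. The means were 0.48 ± 0.17 and 0.77 ± 0.06 (SD, n = 3), a difference of -0.29 (SE 0.17, 95% interval -0.71 to 0.12; limma unadjusted p = 0.137). Bcl2 was the steadiest of the 8 probes: its pooled SD within groups was 0.13, while the median over all probes was 0.38. With array 3 of cycloheximide left out the difference was -0.39 (SE 0.15).

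Bbc3, which encodes PUMA, a BH3-only protein that neutralises BCL2 and its survival relatives, lay on the other side. It was at 1.62, 0.91 and 1.85 on cycloheximide arrays 1, 2 and 3, and at 0.70, 0.31 and 1.54 on strontium arrays 1, 2 and 3. All 6 values exceeded the reference, and the groups overlapped through array 2 of cycloheximide and array 3 of strontium. The means were 1.46 ± 0.49 and 0.85 ± 0.63 (SD, n = 3), a difference of 0.61 (SE 0.40, 95% interval -0.37 to 1.59; limma unadjusted p = 0.180). Without array 3 of cycloheximide it was 0.41 (SE 0.44). Leaving out 1 array at a time gave from 0.34, without array 2 of strontium, to 0.95, without array 3 of strontium, where the unadjusted p by limma was 0.0420.

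**Figure D2:**
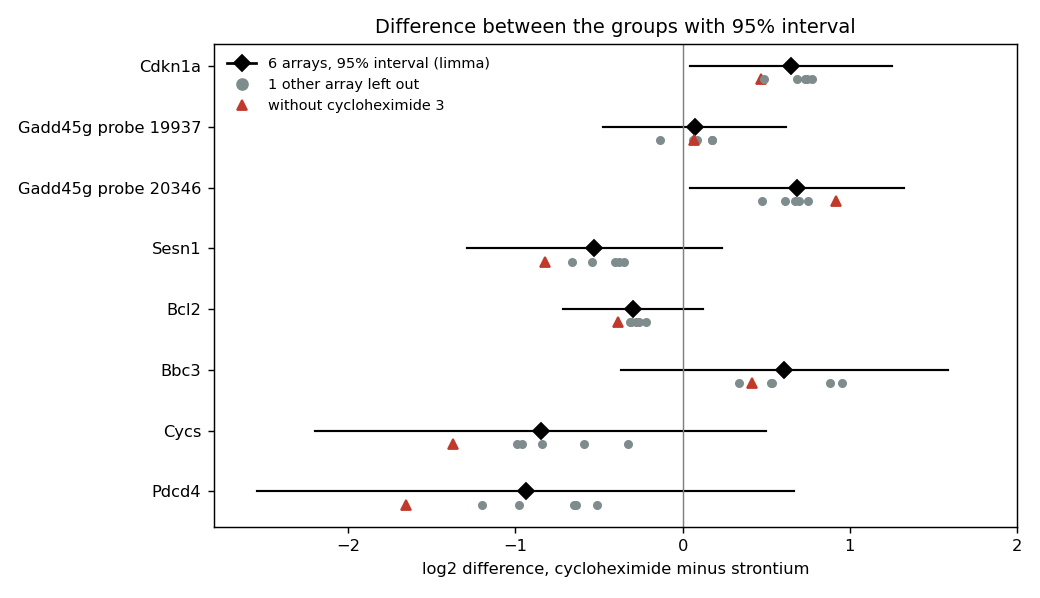
Log2 difference, cycloheximide minus strontium (horizontal axis), for each probe (vertical axis), as a black diamond with its 95% interval from limma over 6 arrays, and below it the difference with 1 array left out, the red triangle marking the one without array 3 of cycloheximide. The interval leaves out 0 for Cdkn1a and probe 20346 of Gadd45g before adjustment, and without array 3 of cycloheximide Pdcd4 moves to -1.65 and Cycs to -1.37.

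Cycs encodes cytochrome c, the electron carrier that forms the apoptosome with APAF1 once it is released into the cytosol. Its ratio was -1.80, -0.78 and 0.29 on cycloheximide arrays 1, 2 and 3, and -0.14, -0.20 and 0.60 on strontium arrays 1, 2 and 3. The cycloheximide arrays were spread over more than 2 log2 units, with arrays 1 and 2 below all others and array 3 among the strontium values. The means were -0.76 ± 1.05 and 0.08 ± 0.45 (SD, n = 3), a difference of -0.85 (SE 0.55, 95% interval -2.19 to 0.50; limma unadjusted p = 0.176). It was -1.37 (SE 0.42) without array 3 of cycloheximide and -0.33 (SE 0.44) without array 1, so single arrays set its size.

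Pdcd4, the inhibitor of eIF4A, showed the largest difference among the members, and the largest spread. It was at -1.44, -1.16 and 0.84 on cycloheximide arrays 1, 2 and 3, and at 0.27, -0.17 and 0.96 on strontium arrays 1, 2 and 3. Arrays 1 and 2 of cycloheximide lay below the reference and below the other 4 arrays, while array 3 lay above the reference. The means were -0.59 ± 1.25 and 0.35 ± 0.57 (SD, n = 3), a difference of -0.94 (SE 0.66, 95% interval -2.54 to 0.66; limma unadjusted p = 0.202). Without array 3 of cycloheximide it was -1.65 (SE 0.37), and without array 1 it was -0.51 (SE 0.68). The median probe on the same run of neighbouring probe numbers lay 0.43 above its own mean on array 3 of cycloheximide, where Pdcd4 lay 0.96 above. Subtracting the run medians from every array gave -0.87 (SE 0.49).

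The members' profiles over the arrays were set against each other. After each probe was centred on its own mean, Cycs and Pdcd4 differed by a root mean square of 0.31 over the 6 arrays, the smallest of the pairs with either of them, against 0.45 for Cycs and Sesn1 and 0.51 for Pdcd4 and Sesn1. Pairs of the less variable probes lay nearer, at 0.28 for probe 19937 of Gadd45g and Bcl2 and at 0.30 for Sesn1 and Bcl2, and each of Cycs and Pdcd4 had genes outside the members that lay nearer still. Probe 20346 of Gadd45g was the farthest from both, at 1.18 from Cycs and 1.29 from Pdcd4. Arrays 1 and 2 of cycloheximide were the lowest 2 of the 6 for 4 probes, those of Sesn1, Bcl2, Cycs and Pdcd4. The share of all probes with this order was not counted, so the 4 cannot be set against it. Over all probes these 2 arrays correlated at 0.953. These patterns describe 6 arrays that share one reference RNA, and array 3 of each group has the wider spread of ratios. The part of that spread in the shared pattern was not tested.

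**Figure D3:**
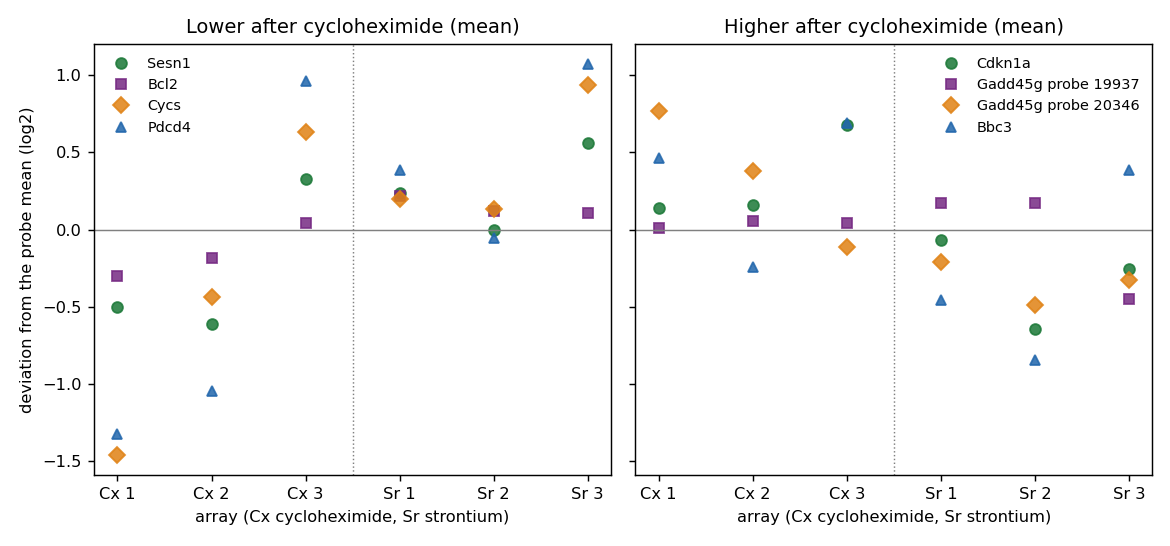
Deviation of each probe from its own mean over the 6 arrays (log2, vertical axis) by array (horizontal axis), on the left for the 4 probes with a lower mean after cycloheximide and on the right for the 4 with a higher mean. Cycs and Pdcd4 lie at -1.46 and -1.32 on array 1 of cycloheximide but at 0.63 and 0.96 on array 3.

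The upstream sequences of Cycs and Pdcd4 are shown because these probes had the largest differences among the members. Capitals in the Cycs sequence mark the CRE (TGACGTCA), its core pentamer (CGTCA, which lies within the CRE too) and the core of the NRF1 motif (GCATGCGC). NRF1 and CREB are known regulators of cytochrome c and of respiration genes. In the Pdcd4 sequence, before the more downstream of its 2 listed starts, capitals mark the NRF1 core, matched on both strands in overlap, and the CCAAT box.
Cycs promoter, chr6:50566570-50566819, minus strand: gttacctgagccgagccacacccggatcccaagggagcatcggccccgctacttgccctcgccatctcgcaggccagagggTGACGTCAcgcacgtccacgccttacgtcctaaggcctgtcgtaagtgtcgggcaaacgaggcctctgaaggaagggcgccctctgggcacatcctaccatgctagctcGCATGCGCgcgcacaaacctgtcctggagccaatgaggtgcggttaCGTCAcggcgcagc
Pdcd4 promoter, chr19:53903101-53903350, plus strand: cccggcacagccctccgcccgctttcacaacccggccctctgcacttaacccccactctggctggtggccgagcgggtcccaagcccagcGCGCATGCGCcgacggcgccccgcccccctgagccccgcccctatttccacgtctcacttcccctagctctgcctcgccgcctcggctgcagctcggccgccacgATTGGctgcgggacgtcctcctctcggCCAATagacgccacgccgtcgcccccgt

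The NRF1 core started 60 bases before the Cycs start. In Pdcd4 overlapping matches on both strands began 160 and 158 bases before the start. Of the 12 windows of the 7 genes these were the 2 with a match, and 2.26% of all windows held one. The window of the other listed Pdcd4 start had neither the NRF1 core nor the CCAAT box. The full CRE, found in Cycs alone of the 7, occurred in 1.55% of all windows and the pentamer in 17.8%. A match is no sign that either factor acted here, and the motif was picked after both sequences had been seen.

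Among all probes the members lay inside the cloud of the comparison. Ranked by the size of the difference, Pdcd4 was at percentile 93.5, Cycs at 91.8, probe 20346 of Gadd45g at 86.8, Cdkn1a at 85.2, Bbc3 at 83.4, Sesn1 at 78.8, Bcl2 at 57.5 and probe 19937 of Gadd45g at 17.0 of the 21921 probes. By pooled SD Pdcd4 was at percentile 92.7 and Cycs at 87.5, so the members with the largest differences were also the most variable. Without array 3 of cycloheximide, 5 of 8 probes had an unadjusted p under 0.05: Gadd45g (probe 20346), Sesn1, Bcl2, Cycs and Pdcd4. In that comparison 19.4% of all probes did so, 6.48% higher and 12.9% lower, and the limma adjusted p of the 8 probes was 0.201 to 0.894. For the median probe of the table the 95% interval reached 0.71 to each side, and of the members the difference exceeded that for Cycs and Pdcd4 alone. These 2 probes vary more than the median probe, and their own intervals were wider and included 0. The interval left out 0, before adjustment, for Cdkn1a and probe 20346 of Gadd45g alone.

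**Figure D4:**
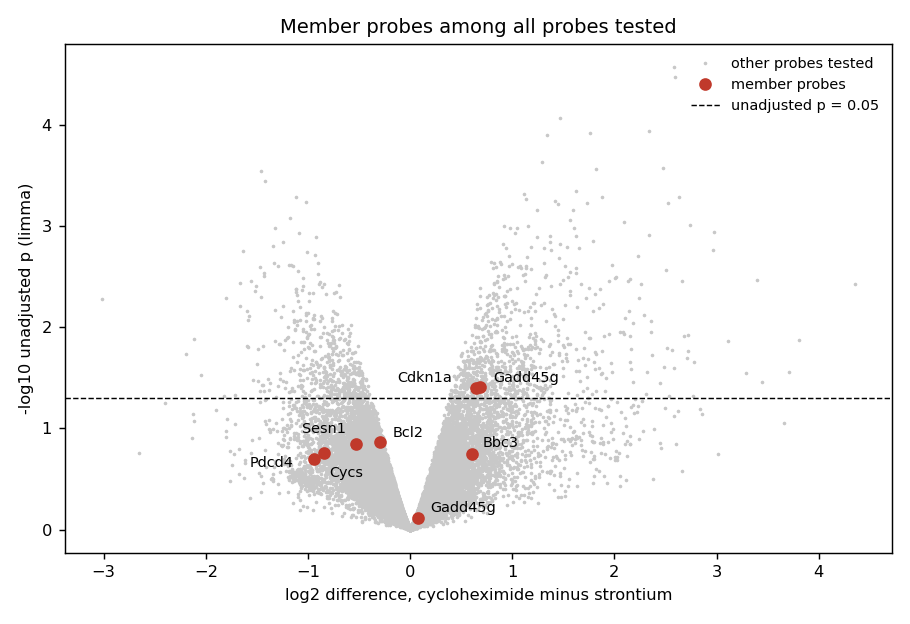
Log2 difference, cycloheximide minus strontium (horizontal axis), against -log10 of the unadjusted limma p (vertical axis) for the 21921 probes tested, with the 8 member probes in red and a dashed line at an unadjusted p of 0.05. Cdkn1a and one probe of Gadd45g lie just above the line, and the other 6 probes below it.

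The genes around the members were compared through lists, in which the probes of a gene were averaged. Apart from the list of cyclins and kinases, these lists also hold members, which count in their medians. The lists were chosen with earlier results of these data known, so the shares over all genes are no unbiased yardstick for them. Over all 4742 genes 54.7% lay below 0, the median difference was -0.03, and 4.28% were higher and 2.36% lower at an unadjusted p under 0.05 (0% past the limma adjusted threshold). With array 3 of cycloheximide left out, 7.36% of the genes were higher and 11.5% lower by the same measure. Of the p53 circuit and its targets 11 of 37 genes were measured. Pmaip1, which encodes NOXA, was at exactly 0 on 5 of 6 arrays, which is no level; the other 10 had a median of 0.03, with 5 above 0 and 5 below. Trp53bp1, a partner of p53 in the DNA damage response, differed by 0.71 (SE 0.37) and Fas, a death receptor, by 0.13 (SE 0.14). Of the genes of this list, 1 had an unadjusted p under 0.05, and it was Cdkn1a. It no longer did without array 2 or 3 of cycloheximide or without array 2 or 3 of strontium. With array 3 of cycloheximide left out, Gadd45g and Trp53bp1 (1.08) did on the higher side and Sesn1 and Trp63 on the lower. Gadd45g is here the mean of its discordant probes, which differed by 0.07 (probe 19937) and 0.91 (probe 20346) in that setting.

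Inhibitors of the cell cycle had 7 of 21 genes measured, 5 above 0 and 2 below, with a median of 0.19. Cdkn1a and Gadd45g, both above 0, are members. Among the other genes Rb1 was at -0.09, Btg3 at 0.08 and Gas5 at 0.19. Wee1, the kinase that holds CDK1 inactive, averaged -0.28 ± 0.31 with cycloheximide and -1.29 ± 1.00 with strontium (SD, n = 3), 1.01 apart (SE 0.51). Gas1 differed by -0.12. The list of cyclins, their kinases, PCNA and E2F factors had 7 of 16 measured, namely 3 cyclins, 3 kinases and E2f1, and PCNA was not among them. Its median was -0.07. The differences ran from -0.17 for Ccne1, a cyclin of entry into S phase, to 0.20 for E2f1, a transcription factor of S phase genes. Ccne1 turned to 0.25 when arrays were centred and scaled. In these lists 1 gene (Cdkn1a) reached an unadjusted p under 0.05. Without array 3 of cycloheximide it was Gadd45g in its place, again as the mean of its discordant probes. Wee1 ran from 0.45 without array 1 of strontium to 1.43 without array 2, where its unadjusted p was 0.0279.

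Survival genes of the BCL2 family had 3 of 8 measured, with a median of -0.29, which is the value of Bcl2, a member. Bcl2l2, which encodes BCL-W, differed by -0.43 (SE 0.37) beside the -0.29 of Bcl2, and Mcl1 by 0.20 (SE 0.21). Single arrays set the size for Bcl2l2, which was -0.82 without array 3 of cycloheximide (unadjusted p = 0.0135 by limma) and -0.13 without array 1. Death genes of the family had 8 of 15 measured, and the 7 besides Pmaip1 had a median of -0.10, with 2 above 0 and 5 below. Bbc3 was the highest, and Bcl2l11, which encodes BIM, the lowest at -0.27 (SE 0.29), a value that ran from -0.48 without array 1 of strontium to -0.04 without array 3. Bnip3l differed by -0.17 (SE 0.18). Over the 6 arrays 0 genes of either list had an unadjusted p under 0.05 by limma. With array 3 of cycloheximide left out, 2 survival genes had one, Bcl2 and Bcl2l2, both lower, and 0 death genes did. In that setting 11.5% of all genes were lower and 7.36% higher by the same measure, and the lists are short.

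Downstream of the mitochondrion, 8 of 24 genes of the apoptosome, the caspases and their inhibitors were measured, 4 on each side of 0 with a median of 0.00. Cycs was the lowest, followed by Htra2, a protease that is released with it, at -0.30 (SE 0.30), and the highest was Dffa, the inhibitor of the apoptotic nuclease, at 0.11 (SE 0.18). The electron carriers around cytochrome c had 6 of 18 genes measured and a median of -0.20, 5 of them below 0 and 1 above. Cox6b1 differed by -0.41 (SE 0.62) and Cox4i1 by 0.00 (SE 0.20), and both changed sign under some alternatives. By limma 0 genes of these lists had an unadjusted p under 0.05, and without array 3 of cycloheximide 1 did, Cycs.

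The genes named for programmed cell death had 7 of 12 measured, 3 above 0 and 4 below, with a median of -0.21. They are related by name, not by sequence or action. Pdcd6ip, which encodes ALIX of the ESCRT pathway, was at -2.41 ± 0.60 and -4.91 ± 2.25 (SD, n = 3), a difference of 2.50 (SE 1.10) that rests partly on 1 value at the limit and ran from 1.63 without array 1 of strontium to 3.77 without array 2. Pdcd2l differed by 0.31 (SE 0.19) and Pdcd11, a factor of ribosome assembly, by 0.31 (SE 0.20). Pdcd4 was the lowest of the 7. Over the 6 arrays 0 of the 7 genes had an unadjusted p under 0.05 by limma; without array 3 of cycloheximide Pdcd4 and Pdcd1lg2 did, both lower, and without array 2 of strontium Pdcd6ip did.

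Partners of PDCD4 and genes of the mTOR pathway had 9 of 21 measured, 5 above 0 and 4 below, with a median of 0.32. Tsc1, which restrains mTOR, averaged 1.27 ± 0.06 with cycloheximide and 0.68 ± 0.17 with strontium (SD, n = 3), 0.59 apart (SE 0.16; limma unadjusted p = 0.0108, adjusted p = 0.717). Eif4g3, a scaffold that binds eIF4A, differed by 0.67 (SE 0.26) and Eif4e, the cap-binding factor, by 0.85 (SE 0.35). Rptor differed by 0.46 and Btrc, the ligase subunit that marks PDCD4 for breakdown, by 0.32. Of these 9 genes, 3 (Tsc1, Eif4g3 and Eif4e) had an unadjusted p under 0.05, all higher, where 4.28% of all genes were so. With 1 array left out Tsc1, the mean of 2 probes, kept an unadjusted p under 0.05 by limma each time. The count of higher genes fell to 1, Tsc1 alone, without array 2 of cycloheximide or without array 1 or 2 of strontium. It also fell to 1 with the most variable probe of each gene in place of the mean. That gene was Eif4g3, so Tsc1 did not keep its unadjusted p under 0.05 there. Without array 3 of cycloheximide 3 genes were higher (Tsc1, Eif4g3 and Rptor) and 2 lower (Pdcd4 and Sesn1), and Eif4g3 was at 0.43. Pdcd4 and Sesn1 were the lowest of the 9.

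**Figure D5:**
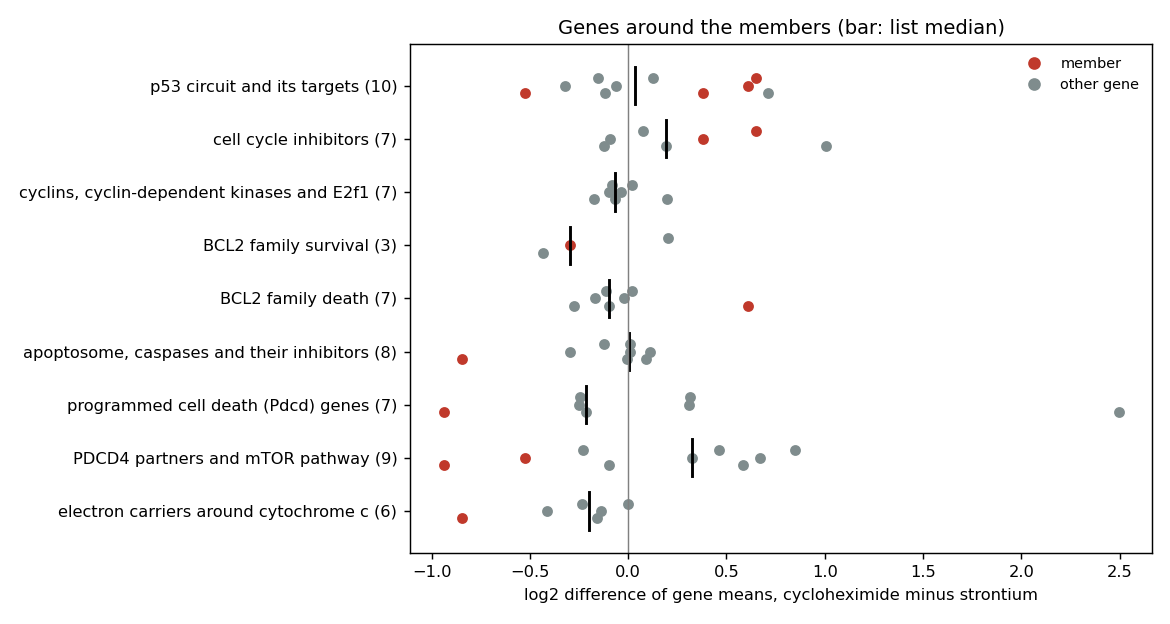
Log2 difference of gene means, cycloheximide minus strontium (horizontal axis), for the measured genes of each list (vertical axis, number in brackets, leaving out Pmaip1), members in red, other genes in grey, and a black bar at the list median. Medians run from -0.29 for BCL2 family survival genes, the value of Bcl2 itself, to 0.32 for the PDCD4 and mTOR list. Pdcd6ip stands alone at 2.50.

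Markers of the embryo's lineages and of cumulus cells were read beside these results. For trophectoderm and inner cell mass, 6 of 13 genes were measured, and the array medians were 0.18 to 0.57 after cycloheximide and 0.41 to 0.71 after strontium. Of the 6 differences 4 lay below 0 and 2 above, with a median of -0.28. They ran from -1.04 (SE 0.61) for Gata4 to 0.14 for Nanog, which had 4 values at exactly 0. Klf5 was at 0.13 and Krt18 at -0.08. Tfap2a, at -1.02 (SE 0.26), and Gata3, at -0.49 (SE 0.15), had an unadjusted p under 0.05 by limma, where 2.36% of all genes were so on the lower side. Without array 3 of cycloheximide Gata4 (-1.69) did too, where 11.5% of all genes were so on the lower side. Gata3 did not without array 1 or 2 of cycloheximide or array 1 of strontium. Cumulus and granulosa markers, 3 of 13 measured, had array medians of -0.56 to 0.30 and of -0.78 to -0.32, and differed both ways: Cyp11a1, with 4 values at exactly 0, by 0.85 (SE 0.49), Ptgs2 by 0.21 (SE 0.36) and Gja1 by -0.65 (SE 0.26). Their median was 0.21, and without array 3 of cycloheximide it was 0.56. The part of lineage or cumulus RNA in the members' differences was not tested. Since each sample pooled embryos, fewer cells with a transcript and less of it per cell cannot be told apart.

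For each member, the genes whose centred values over the 6 arrays lay nearest were sought among 5882 probes with 1 gene and no value at 0 or at the limit. The measure is the root mean square difference in log2 units. For Cdkn1a they were Gtf2i (0.095) and Ldb3 (0.12), and for probe 20346 of Gadd45g, Lamb1 (0.089) and Glis1 (0.11). For Sesn1 they were Npas3 (0.081) and Ndufb9 (0.085), and for Bcl2, Acoxl (0.032) and E230015B07Rik (0.040). For Bbc3 they were Washc4 (0.12) and Srrm2 (0.16). For Cycs they were Tmem161b (0.080) and Id4 (0.12), and for Pdcd4, Gata4 (0.087) and Ccl20 (0.089). With 6 arrays, such likeness describes these samples and no more.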

How the data were processed

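Embryo and reference RNA were hybridised together on 6 Agilent arrays with 2 colours. The submitters' processing notes name Agilent Feature Extraction, without a version; the treatment of background and dyes is not stated in those sources. Deposited values are log10 ratios per probe, none beyond -2 or 2. Their sign was changed and they were multiplied by 3.32, which gives log2 of embryo over reference if the likely direction holds. Probes were named by the platform annotation (6249 with 1 gene), and 211 probes with 0 on every array were dropped. Precision is limited by the number of arrays, and without spot intensities the signal over background was not examined.

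The groups were compared per probe with limma 3.58.1 (lmFit, eBayes) in R 4.3.3, with Benjamini-Hochberg adjustment over all 21921 probes and a threshold of 0.05. The fit was tested on simulated data. Gene lists used means of a gene's probes. Python 3.11.15, pandas 2.3.3, NumPy 2.4.6 and matplotlib 3.10.9 prepared values and plots. Members and lists were chosen with earlier results of these data known. Named genes were all members, the gene with the smallest p in each direction of each list, and up to 4 more per list to describe a count; named markers were picked after their values were seen. For likeness, each member's probe with the largest SD was used, and the 2 nearest genes were named. Alternatives covered scaling, unset values, filters, position (medians of runs of consecutive probe numbers subtracted), a replicate block, array weights, a variance trend and each array left out. Promoter windows came from RefSeq, GRCm38.p6.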

Additional observations from a re-analysis of the deposited data

How the results depend on the processing

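Of 128 alternative values of the 8 member probes 126 kept their direction, and none passed the adjusted threshold, nor did any named gene of the lists. The lowest adjusted p of a member was 0.0557 (Sesn1, array weights). Probe 19937 of Gadd45g changed sign, to -0.018 with array weights and to -0.13 at the lowest (0.18 at the highest) with 1 array left out. With the sign of the ratio turned, the differences would be -0.65 (Cdkn1a), -0.072 and -0.69 (Gadd45g), 0.53 (Sesn1), 0.29 (Bcl2), -0.61 (Bbc3), 0.85 (Cycs) and 0.94 (Pdcd4).

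Array weights, whose estimate stopped before it converged, gave 224 higher and 135 lower probes past the adjusted threshold, against 0 and 0 in every other setting, and 2864 higher and 4368 lower by unadjusted p. With the replicate block 1222 and 864 probes had an unadjusted p under 0.05, against 811 and 508, with 0 past the adjusted threshold. Same-numbered arrays deviated together at 0.056, 0.379 and 0.501, while array 1 of cycloheximide and array 2 of strontium did so at 0.457. The labels state no pairs, so the numbers were not taken to pair samples. Leaving out 1 array gave 449 to 1421 higher and 299 to 2821 lower, the highest without array 3 of cycloheximide. Of the member probes, 2 had an unadjusted p under 0.05; the count was 4 with the replicate block, 5 with array weights, 1 with quantile normalization, 0 with centred and scaled arrays, 0 with a variance trend, and 0 to 5 with 1 array left out. Ccne1 became 0.25 with centred and scaled arrays. Cox6b1 became 0.11 there and ran from -0.96 to 0.19 with 1 array left out. Cox4i1 became -0.32 with centred and scaled arrays, -0.070 with array weights and -0.16 with its most variable probe, and ran from -0.14 to 0.091 with 1 array left out. Dffa ran from -0.023 to 0.18 in the same way, lowest without array 3 of strontium. Cyp11a1 became -0.064 on probes with no value at 0 or at the limit, and Ptgs2 ran from -0.043 to 0.56 with 1 array left out. The difference moved by over 1.5 times with some array left out for 23 of 28 named genes of the lists and markers. With 1 array left out, 2 of them (Tsc1 and Tfap2a) kept an unadjusted p under 0.05 by limma each time. Tsc1 did not keep it with its most variable probe. The median of the 8 BCL2 family death genes, Pmaip1 included, turned from -0.058 to 0.055 without array 3 of cycloheximide. The cause of these changes was not tested.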
